A study of Homo sapiens with 3 samples.

Results

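The comparison described here sets HEK 293T cells that overexpressed ADAR2 together with SRSF9 against HEK 293T cells that overexpressed ADAR2 alone, so the labelled difference between them is the added SRSF9. It takes in every gene with a mean of at least 1 CPM over these 2 libraries, which were 16055 of the 57268 gene identifiers in the count table. CPM are reads per 1e+06 reads of the scaled library. HEK 293T is a human embryonic kidney cell line. Another library, from wild-type HEK 293T cells without overexpression, is given beside the others. Each group is 1 library, made with a strand-preserving kit from 2 µg of total RNA purified with Trizol. How messenger RNA was enriched, what vectors and promoters drove the proteins and whether clones or pools of cells were used is not given in the sources used here.

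ADAR2, the product of ADARB1, is an RNA editing enzyme that turns adenosine into inosine within double-stranded RNA. SRSF9 belongs to the SR proteins, splicing factors that bind exonic sequences through RNA recognition motifs and recruit the spliceosome through domains rich in arginine and serine. SR proteins also take part in export, stability and translation of messenger RNA, and the series was set up to ask how SRSF9 bears on editing by ADAR2. The values below are transcript levels, not editing levels.

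With 1 library a side there is no replicate, so every difference below compares 2 libraries and not 2 conditions, and p-values are not given. A gene is called higher or lower when its ratio is at least 1.5-fold and the 95% counting interval of the ratio excludes 1. These intervals cover counting error only. In bulk RNA, a change in how many cells carry a transcript and a change in its amount per cell cannot be told apart. The count table held 152878282 reads for wild-type cells, 132887974 for the ADAR2 library and 97875935 for the ADAR2+SRSF9 library. The interval alone excluded 1 for 50.5% of the 16055 genes, so the size of a ratio, and not its interval, separates genes here. All 11 genes used to mark HEK293 identity were measured, among them the neurofilament gene NEFM and the kidney transcription factor gene PAX2. None of the 11 was called, and their median log2 ratio was 0.003. Summed levels of the leukocyte markers were 4.80, 4.92 and 5.29 CPM in wild-type cells, the ADAR2 library and the ADAR2+SRSF9 library, with 2 of 8 measured and the B cell gene MS4A1 at 0 reads in all 3. Those of the fibroblast markers were 35.3, 34.3 and 39.9 CPM, nearly all from the collagen gene COL1A1, and those of other epithelial lines 15.8, 14.9 and 15.3 CPM.

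SRSF9 itself went with its label. It had 57545 reads in wild-type cells, 49544 in the ADAR2 library and 1753179 in the ADAR2+SRSF9 library, which correspond to 372, 369 and 18288 CPM. Its ratio between the 2 libraries compared was 49.6 (49.1 to 50.003), and it took up 1.79% of all reads where it was overexpressed. ADARB1 stood at 113.6, 16100.0 and 13647 CPM. It was therefore overexpressed in both libraries but not equally, with a ratio of 0.848 (0.846 to 0.849), and whether this difference bears on any other gene was not tested. ADAR, which encodes the ubiquitous editing enzyme ADAR1, was close in all 3 libraries, with a ratio of 0.972 (0.955 to 0.989). ADARB2, the family member without known editing activity, had 0, 1 and 0 reads, which is under the floor of 3 reads.

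Most of the transcriptome lay close to its level in the ADAR2 library. Of all genes, 145 were higher (0.903%) and 384 lower (2.39%), with a median log2 ratio of 0.01. The lower genes were mainly processed pseudogenes, which supplied 302 of the 384. The higher genes were spread over classes, with 48 protein-coding genes, 46 long noncoding RNAs and 24 RNAs that carry no poly(A) tail. Among 12824 protein-coding genes the background was 0.374% higher and 0.421% lower, and the middle of the distribution, from the lower to the upper quartile, ran from -0.05 to 0.09 on the log2 scale. At a mean of at least 10 CPM only 4 of 9635 protein-coding genes were higher and 5 lower.

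**Figure D1:**
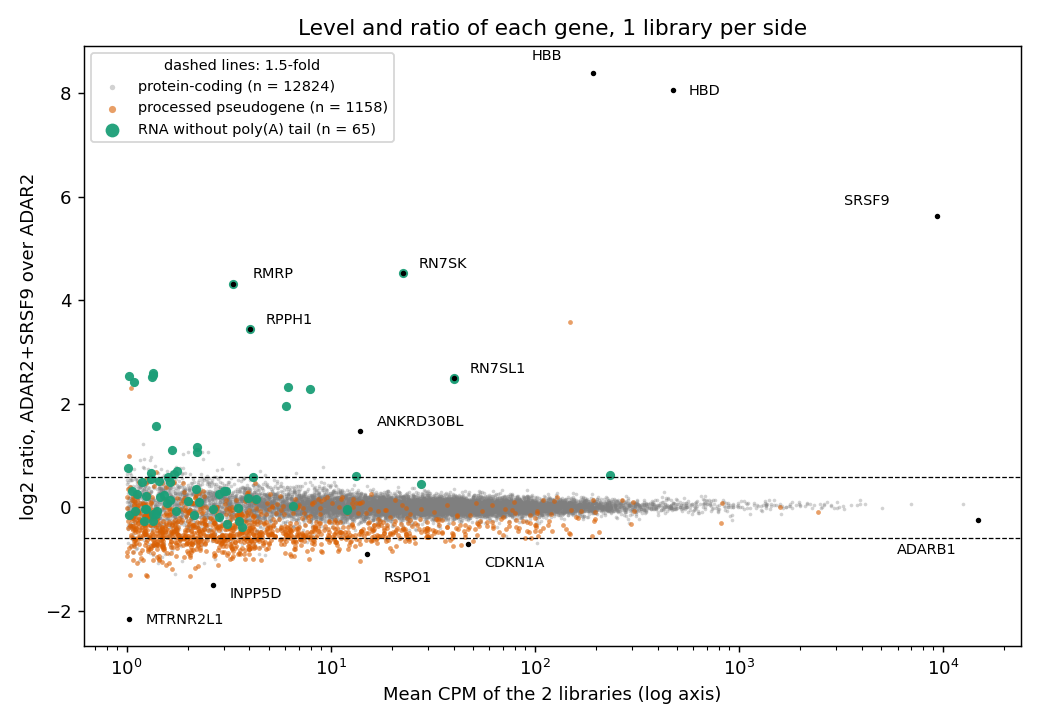
Log2 ratio of the ADAR2+SRSF9 library over the ADAR2 library (vertical axis) against the mean CPM of the 2 libraries (horizontal log axis), 1 point per gene, for 3 classes. Protein-coding genes lie around 0, processed pseudogenes mostly below 0 and some RNAs without poly(A) tail far above, while HBB, HBD and SRSF9 stand apart at the top; the pseudogene point near a log2 ratio of 3.59 is a row with a clone-based name.

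**Figure D2:**
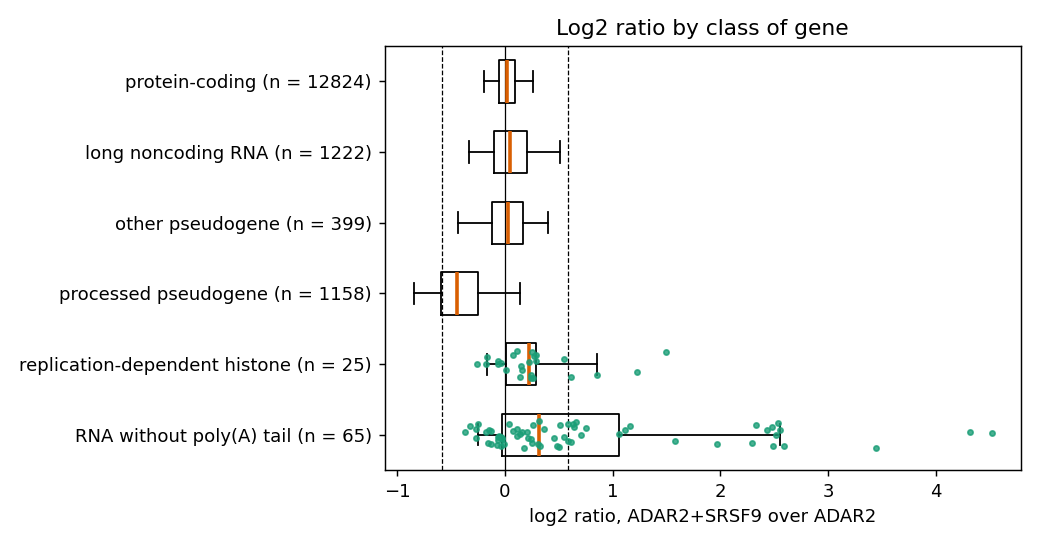
Log2 ratios by class of gene, with boxes from the lower to the upper quartile, a line at the median, whiskers from the 5th to the 95th percentile and dashed lines at 1.5-fold; single genes are drawn as points for the 2 small classes. The box of processed pseudogenes lies wholly below 0, with a median of -0.45, and that of RNAs without poly(A) tail reaches from -0.03 to 1.06.

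Besides SRSF9, the largest ratios belonged to HBB and HBD, the beta and delta chains of adult haemoglobin. HBB had 222 reads in wild-type cells, 154 in the ADAR2 library and 36744 with SRSF9 added, or 1.44, 1.15 and 383 CPM, a ratio of 334 (285 to 394). HBD had 570, 476 and 90665 reads, or 3.69, 3.55 and 946 CPM, a ratio of 267 (244 to 293). Both genes were thus low in wild-type cells and the ADAR2 library and high in the ADAR2+SRSF9 library alone. They are neighbours on chromosome 11 and share 93.2% of their coding bases, so reads can pass between their rows. The first 100 bases of their second coding exons show how far a read would have to reach to tell them apart. Capitals mark the 4 bases that differ (GRCh38, GENCODE v29, minus strand, chr11:5226700-5226799 for HBB and chr11:5234114-5234213 for HBD, printed 5′ to 3′).
HBB: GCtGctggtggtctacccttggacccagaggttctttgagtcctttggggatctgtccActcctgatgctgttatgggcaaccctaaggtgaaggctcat
HBD: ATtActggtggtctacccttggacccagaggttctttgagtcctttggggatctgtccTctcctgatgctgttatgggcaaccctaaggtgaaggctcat
The remaining globin genes gave no such difference. The alpha globin genes HBA1 and HBA2 were at 6.54 and 5.67 CPM in the ADAR2 library and at 6.28 and 5.38 CPM with SRSF9 added. HBQ1, the theta globin gene, was at 12.4 and 13.4 CPM. The fetal and embryonic beta-type genes HBG1, HBG2 and HBE1 had 2, 2 and 15 reads in the ADAR2 library and 1, 0 and 5 with SRSF9 added. Markers of erythroid cells other than beta-type globins summed to 24.3, 28.0 and 28.6 CPM in the 3 libraries, with 4 of 16 measured and 0 called. The 4 were HBA1, HBA2 and HBQ1 and the transcription factor gene TAL1, at 1.44 and 1.23 CPM in the ADAR2 and ADAR2+SRSF9 libraries. Among the others, AHSP, the alpha globin chaperone, had 0, 0 and 1 reads, the glycophorin gene GYPB had none in any library, and GATA1, the erythroid transcription factor gene, had 28, 17 and 33 reads. The source of the HBB and HBD reads was not tested.

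The other highest protein-coding genes at a mean of at least 10 CPM were closer to the ADAR2 library. ANKRD30BL had 2396, 994 and 1969 reads in wild-type cells, the ADAR2 library and the ADAR2+SRSF9 library, a ratio of 2.77 (2.57 to 2.997), so that the ADAR2 library was the low one of the 3. EIF4A1, the RNA helicase of the cap-binding complex, was at 16.1, 14.9 and 22.2 CPM, with a ratio of 1.49 (1.40 to 1.58). A readthrough gene overlaps it, and reads in the shared exons may not have been counted for it. The 8 genes that followed had ratios from 1.31 to 1.41 and so, like EIF4A1, were not called. They were SPRN, a relative of the prion protein gene, RWDD2B, the near-identical cell cycle regulator copies SPDYE2B and SPDYE2, the F-box gene FBXL8, UVSSA, which acts in transcription-coupled DNA repair, PCYT2, an enzyme of phosphatidylethanolamine synthesis, and PSEN2, a catalytic subunit of gamma-secretase. For these 8 the ADAR2+SRSF9 library was the highest of the 3, at 11.5 to 28.3 CPM.

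Weakly expressed protein-coding genes, with a mean from 1 to 10 CPM, made up 44 of the 48 that were higher. The 6 highest of these that bore gene names had ratios from 1.91 to 2.11. ECM1, an extracellular matrix glycoprotein, had 292, 172 and 259 reads in wild-type cells, the ADAR2 library and the ADAR2+SRSF9 library, with a ratio of 2.11 (1.73 to 2.57). MUC6, a gastric mucin, had 512, 217 and 325 reads, a ratio of 2.10 (1.76 to 2.50). In these genes, as in ITGB1BP2, a muscle integrin-binding chaperone (335, 202 and 304 reads), CCDC19 (405, 167 and 244 reads) and CSGALNACT1, which starts chondroitin sulphate chains (210, 112 and 153 reads), the ADAR2 library had the lowest CPM of the 3. RP1L1, a photoreceptor gene, was at 1.04, 0.879 and 1.74 CPM. CSGALNACT1, at 0.834 CPM in the ADAR2 library, and RP1L1 passed the filter only through the ADAR2+SRSF9 library. The filter on mean CPM therefore bears on the count of 44.

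Lowest among protein-coding genes at a mean of at least 10 CPM was RSPO1, a secreted protein that strengthens Wnt signalling through LGR receptors. It had 2623, 2635 and 1014 reads, or 17.0, 19.6 and 10.6 CPM, a ratio of 0.539 (0.501 to 0.580). The ADAR2+SRSF9 library lay below both others. Of 44 measured Wnt ligands, receptors, transducers and feedback targets, RSPO1 was the only one called, and the median log2 ratio of the list was 0.04. The ligand gene WNT10B was at 7.81 and 10.8 CPM in the 2 libraries, and the secreted inhibitor gene DKK1 at 0.924 and 1.34 CPM. The feedback target AXIN2 had a ratio of 1.06 (0.971 to 1.17), and LGR5, a receptor for R-spondins, 1.22 (1.07 to 1.39).

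CDKN1A, which encodes the cyclin-dependent kinase inhibitor p21, came next. It had 6789 reads in wild-type cells, 7846 in the ADAR2 library and 3457 with SRSF9 added, corresponding to 43.9, 58.4 and 36.1 CPM. Its ratio was 0.617 (0.593 to 0.642). The ADAR2 library was the highest of the 3, and the ADAR2+SRSF9 library the lowest. GDF15, a secreted stress cytokine, had 398, 486 and 174 reads, a ratio of 0.501 (0.419 to 0.597). These were the 2 members called lower (6.67%) among 30 measured genes of a list of p53 targets, which act in DNA damage and cell cycle arrest. In that list 0 were called higher. Over all genes 2.39% were lower and 0.903% higher, and over protein-coding genes 0.421% were lower. Of the 30, 25 had log2 ratios below 0, against 7405 of all 16055 genes, and the median was -0.18. These lists were chosen with earlier results of these data known, so these values are a description.

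Within this list the negative regulators MDM2, a ubiquitin ligase, and PPM1D, a phosphatase, were at ratios of 0.820 (0.791 to 0.851) and 0.939 (0.894 to 0.987). PHLDA3, an inhibitor of AKT, was at 22.3, 30.2 and 22.4 CPM, so that the ADAR2+SRSF9 library was level with wild-type cells and the ADAR2 library stood above both. For AEN, an apoptosis-enhancing nuclease, at 94.9, 112 and 90.9 CPM, the ADAR2 library was again the highest. Of the cell death genes, BBC3 (PUMA) was at 0.880, PMAIP1 (NOXA) at 0.913 and BAX at 0.956. Among DNA repair genes DDB2 was at 0.828, POLH at 0.875 and XPC at 0.957. Among those above 1 were FDXR at 1.005, PLK3 at 1.07, SESN1 at 1.13 and PLK2 at 1.34, and none of these was called.

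The other lowest protein-coding genes at this level fell into different kinds. MSL2, a subunit of a histone acetyltransferase complex, was at 76.4, 85.4 and 58.6 CPM, a ratio of 0.686 (0.664 to 0.708). ZNF467, a zinc finger gene, was at 10.6, 13.3 and 9.29 CPM, a ratio of 0.698 (0.644 to 0.757). KLHL11, an adaptor of a ubiquitin ligase, ING4, a reader of histone H3 methylation, and RRAS, a small GTPase, had ratios of 0.738, 0.744 and 0.747. None of these 5 reached 1.5-fold, although MSL2 did with plain totals (log2 ratio -0.59) and ZNF467 with the GC trend removed (-0.60). Besides PHLDA3, the rest of the 12 lowest were MTRNR2L12, MTRNR2L8, PABPC3 and the row with the symbol MIR4426, which share sequence with other genes and are described below. Of these, MTRNR2L12, MTRNR2L8 and PABPC3 were called.

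At 1 to 10 CPM the lowest protein-coding gene apart from MTRNR2L1 was INPP5D, which encodes the blood cell phosphatase SHIP1. It had 317, 525 and 133 reads, or 2.05, 3.91 and 1.39 CPM, and a ratio of 0.355 (0.291 to 0.430). IGSF22 had 154, 330 and 97 reads, a ratio of 0.412 (0.325 to 0.518). For both genes the ADAR2 library was the high one. FRZB, a secreted Wnt antagonist outside the Wnt list, was at 1.28, 1.94 and 0.918 CPM. POU2F2, a B cell transcription factor gene, was at 3.05, 3.23 and 1.53 CPM, and FERMT3, the kindlin of blood cells, at 0.809, 1.54 and 0.751 CPM. Their ratios were 0.472, 0.474 and 0.487. FRZB and FERMT3 were under 1 CPM with SRSF9 added and passed the filter only through the ADAR2 library.

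Processed pseudogenes are copies of spliced messenger RNAs that were reverse transcribed back into the genome, so they lack introns and resemble their source genes closely. As a class they were lower with SRSF9 added. Of 1158 measured, 302 were lower (26.1%) and 5 higher (0.432%), 1039 had log2 ratios below 0, and the median was -0.45. Their summed level was 23075 CPM in wild-type cells, 23012 CPM in the ADAR2 library and 19546 CPM with SRSF9 added. Wild-type cells and the ADAR2 library were therefore close, and the ADAR2+SRSF9 library lay below them. Pseudogenes of other kinds, which include duplicated genes with introns, had a median of 0.03 over 399 members, with 7 higher (1.75%) and 9 lower (2.26%).

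Each pseudogene was also set beside the gene it resembles. By sequence alignment, 877 of the 1158 matched a measured protein-coding transcript over at least 50% of their length, and together they matched 399 genes. In 819 of the 877 pairs (93.4%) the pseudogene had the smaller log2 ratio. The median was -0.46 for these pseudogenes and 0.02 for their matched genes, and the median difference within pairs was -0.50, with quartiles of -0.64 and -0.30. EEF1A1, the translation elongation factor gene and one of the most copied in the genome, was the match of 21 pseudogenes. These had a median log2 ratio of -0.54 and ranged from -1.03 to -0.07, while EEF1A1 itself was at 0.07. The 22 matched to the ribosomal protein gene RPL21 had a median of -0.43, and the 21 matched to HNRNPA1, an RNA-binding protein gene, a median of -0.47. Over all 288 pseudogenes of cytosolic ribosomal protein genes the median was -0.50. It was -0.44 for the 573 whose match is neither such a gene nor a gene of the mitochondrial genome.

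The lowest named pseudogene at a mean of at least 10 CPM was EEF1A1P22, which had 2780 reads in wild-type cells, 2514 in the ADAR2 library and 877 with SRSF9 added. Its ratio was 0.489 (0.452 to 0.528), while EEF1A1 had 2108013, 1655349 and 1238417 reads and a ratio of 1.05. The ADAR2+SRSF9 library was the low one for the pseudogene only. The stretch below shows how alike the pair is: 100 bases of the longest coding exon of EEF1A1 (GRCh38, GENCODE v29, minus strand, chr6:73519129-73519228) and the matching bases of EEF1A1P22 (minus strand, chr15:52938096-52938195), printed 5′ to 3′, with the 7 differing bases in capitals.
EEF1A1: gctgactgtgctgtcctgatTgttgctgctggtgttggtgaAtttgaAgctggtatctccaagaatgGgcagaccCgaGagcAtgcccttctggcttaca
EEF1A1P22: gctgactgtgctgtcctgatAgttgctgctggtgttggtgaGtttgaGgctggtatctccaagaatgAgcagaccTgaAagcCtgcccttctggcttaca
Next came RPS10P3 at 25.6 CPM in the ADAR2 library and 14.4 CPM with SRSF9 added, SUMO2P1 at 13.9 and 7.94 CPM, RPL5P3 at 15.4 and 8.85 CPM and EEF1A1P4 at 24.5 and 14.3 CPM. Their ratios ran from 0.561 to 0.585. SUMO2, the ubiquitin-like modifier gene matched to SUMO2P1, had a ratio of 0.982 (0.968 to 0.996). At the other end, the highest named pseudogenes were TPM3P9, GSTM3P1 and GPX1P1, with ratios of 1.16, 1.11 and 1.11. GSTM3P1 shares only 75.3% of its aligned bases with GSTM3.

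The difference varied with the likeness of a pseudogene to its matched gene. In 190 pairs with at least 98% identity the median log2 ratio of the pseudogene was -0.32 and 8.95% were lower by 1.5-fold. In 306 pairs from 95% to 98% the median was -0.52 and 29.1% were lower. In 321 pairs from 90% to 95% these were -0.50 and 37.1%, and in 48 pairs from 85% to 90% they were -0.45 and 37.5%. The 12 pairs under 85% had a median of -0.10, but they are few. These groups also differed in level, with median pseudogene levels of 8.36 CPM at 98% and above and 2.34 CPM from 90% to 95%, and the part of either property was not tested. Reads of a gene and its close copy can be assigned to either, and the authors' handling of reads that map to several places is not given in the sources used here.

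**Figure D3:**
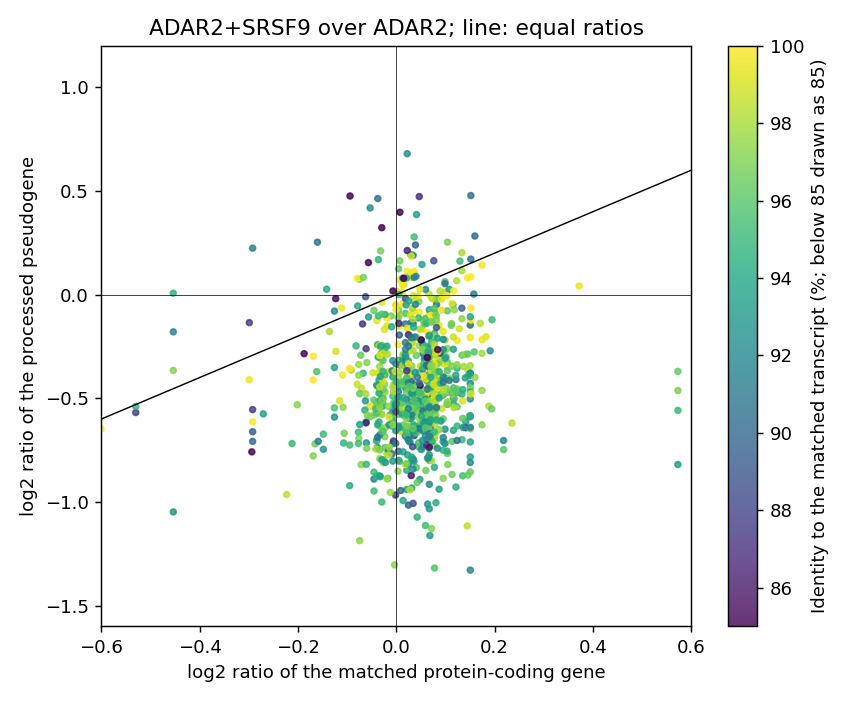
Log2 ratio of each processed pseudogene (vertical axis) against that of its matched protein-coding gene (horizontal axis), both for the ADAR2+SRSF9 library over the ADAR2 library, for 877 pairs coloured by sequence identity; 2 pairs lie outside the axes. Matched genes gather around 0.02 while their pseudogenes gather around -0.46, below the line of equal ratios.

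Annotated protein-coding genes without introns that resemble another gene lay lower too. The 47 protein-coding genes with 1 exon and at least 80% identity to another protein-coding transcript had a median log2 ratio of -0.20, with 13 lower (27.7%) and 0 higher. The other 384 genes with 1 exon had a median of 0.03, with 3 lower (0.781%) and 4 higher. The 12393 genes with more exons had a median of 0.02, with 38 lower (0.307%) and 44 higher. The 47 include copies of genes with introns and also paralogues that match each other, such as MTRNR2L12 and MTRNR2L8, and H2BFS matched a second locus of the same symbol. The 13 were among the 54 protein-coding genes that were lower. PABPC3, a copy of the poly(A)-binding protein gene PABPC1, was at 22.0, 22.4 and 14.6 CPM, a ratio of 0.652 (0.611 to 0.695), while PABPC1 was at 1330 and 1263 CPM in the ADAR2 and ADAR2+SRSF9 libraries. GLUD2, a copy of the glutamate dehydrogenase gene GLUD1, was at 5.27, 5.47 and 3.58 CPM, and GLUD1 had a ratio of 0.987. CSNK2A3, a copy of the casein kinase gene CSNK2A1, had 237, 169 and 75 reads, a ratio of 0.622. GLUD2 and CSNK2A3 were chosen after their values were seen. In each of these 3 pairs the copy was called lower and the gene with introns was not. The MIR4426 row, which the annotation lists as a protein-coding gene and which resembles the ribosomal protein gene RPS27A at 97.6% identity, had 2782, 2534 and 1321 reads and a ratio of 0.730 (0.683 to 0.781), below the threshold for a call.

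The MTRNR2L genes, nuclear copies of the mitochondrial 16S ribosomal RNA with reading frames like that of humanin, had the lowest list median. All 7 measured members had log2 ratios below 0, and the median was -0.65. Of the 7, 5 were called lower (71.4%), against 2.39% over all genes and 26.1% over processed pseudogenes. MTRNR2L12 was at 133, 127 and 78.4 CPM, a ratio of 0.618 (0.601 to 0.635). MTRNR2L2 was at 48.9, 44.5 and 28.4 CPM, and MTRNR2L8 at 27.9, 26.2 and 17.2 CPM. MTRNR2L1 had 265, 226 and 36 reads, a ratio of 0.223 (0.152 to 0.318). At 1.68 CPM in the ADAR2 library and 0.376 CPM with SRSF9 added, it passed the filter only through the ADAR2 library. MTRNR2L3 had a ratio of 0.595. The ADAR2+SRSF9 library was the lowest of the 3 for each of these 5. The 13 protein-coding genes of the mitochondrial genome had a median of 0.03 and 0 calls, the lowest being MT-ND6, a subunit of complex I, at 0.863.

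RNAs without a poly(A) tail differed in the opposite direction. They are small nuclear, nucleolar and cytoplasmic RNAs that a library of polyadenylated RNA takes up only in small part. Of 65 measured, 24 were higher (36.9%) and 0 lower, against the background of 0.903% higher over all genes, and their median log2 ratio was 0.32. Their summed level was 406 CPM in wild-type cells, 370 CPM in the ADAR2 library and 699 CPM with SRSF9 added. The single row BCYRN1 supplied 191, 184 and 285 CPM of these sums. RN7SL1 and RN7SL2 supplied 12.1 and 12.2 CPM in the ADAR2 library and 67.9 and 68.3 CPM with SRSF9 added. The filter on mean CPM bears on the counts of calls. RMRP, RPPH1, SCARNA2, RN7SKP80, SNORD14E and the 4 U1 rows were under 1 CPM in the ADAR2 library. They passed the filter only through the ADAR2+SRSF9 library, and the 4 U1 rows share 1 sequence. With no filter 180 of 1753 RNAs of the class were higher and 44 lower. Over all 37516 genes with reads in either library these counts were 2001 and 1930. The class was not uniform. Both RNAs of RNase P and RNase MRP, RN7SK and its copy RN7SKP80, all 4 U1 rows, 6 of 8 rows of signal recognition particle RNA and 2 of 3 small Cajal body RNAs were higher. A further row named 7SK, with 330, 291 and 225 reads, was at a log2 ratio of 0.11. Of box C/D small nucleolar RNAs 6 of 23 were higher, and 0 of 8 box H/ACA RNAs and 0 of 4 rows with the symbol Y_RNA were.

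RN7SK is the scaffold of the 7SK particle, which keeps the elongation kinase P-TEFb inactive together with HEXIM1 and LARP7. It had 3438 reads in wild-type cells, 253 in the ADAR2 library and 4148 with SRSF9 added, or 22.3, 1.88 and 43.3 CPM. Its ratio was 23.0 (20.2 to 26.2). The ADAR2 library was far below wild-type cells as well, so this ratio joins a low value in one library and a high value in the other. The protein partners did not share this pattern: of 12 genes for 7SK particle and P-TEFb proteins 0 were called and the median was -0.03. HEXIM1 was at 97.4, 86.9 and 91.0 CPM and LARP7 at 65.8, 59.0 and 58.5 CPM. The first 100 bases of RN7SK (GRCh38, GENCODE v29, plus strand, chr6:52995621-52995720) are shown because they hold the stem that HEXIM proteins are known to bind. Capitals mark each GATC, which reads the same on both strands. The window holds 3 of them, and 0.286% of the 203677 annotated transcripts hold 3 or more in their first 100 bases.
RN7SK: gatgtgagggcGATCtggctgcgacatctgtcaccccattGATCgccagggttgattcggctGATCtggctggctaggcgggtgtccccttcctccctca

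The RNA subunits of 2 related RNA-cutting enzymes followed. RMRP, the RNA of RNase MRP, which processes ribosomal RNA precursors, had 167, 42 and 607 reads, a ratio of 20.2 (14.8 to 28.4). RPPH1, the RNA of RNase P, which trims the leader of transfer RNAs, had 223, 90 and 705 reads, a ratio of 11.0 (8.80 to 13.8). For both the ADAR2+SRSF9 library was above wild-type cells and the ADAR2 library below it. SCARNA2, a guide RNA of Cajal bodies, had 114, 51 and 222 reads, a ratio of 6.10 (4.48 to 8.44).

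U1 small nuclear RNA base-pairs with the 5′ splice site at the start of spliceosome assembly. RNU1-2 had 124, 52 and 220 reads and RNU1-3 had 95, 40 and 168, with ratios of 5.93 (4.36 to 8.18) and 5.88 (4.15 to 8.53). RNU1-1 to RNU1-4 are copies of 1 identical sequence of 164 bases in the annotation, so their 4 rows cannot be told apart by reads and are 1 observation. The sequence of RNU1-1 (GRCh38, GENCODE v29, minus strand, chr1:16514122-16514285) is shown with the bases that pair with 5′ splice sites in capitals.
RNU1-1: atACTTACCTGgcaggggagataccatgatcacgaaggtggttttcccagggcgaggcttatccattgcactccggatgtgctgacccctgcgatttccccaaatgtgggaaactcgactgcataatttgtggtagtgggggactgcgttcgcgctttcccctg
The proteins that work beside U1 stayed near the ADAR2 library. Of 40 core spliceosome genes 0 were called, with a median of 0.04, and SNRPB2, a U2 particle protein gene, had the largest ratio at 1.17.

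RN7SL1 and RN7SL2 encode the RNA of the signal recognition particle, which docks ribosomes making secreted proteins at the endoplasmic reticulum. RN7SL1 was at 14.4, 12.1 and 67.9 CPM, a ratio of 5.62 (5.32 to 5.94), and RN7SL2 at 14.3, 12.2 and 68.3 CPM, a ratio of 5.58. Here wild-type cells and the ADAR2 library were close and the ADAR2+SRSF9 library was high. The 2 genes are 98.3% identical and may share reads. RN7SL3 was at 2.91, 2.45 and 9.58 CPM. The 8 genes for proteins of the particle and its receptor had 0 calls and a median of 0.006. BCYRN1, a brain cytoplasmic RNA with a 5′ part derived from an Alu element, was at 191, 184 and 285 CPM, a ratio of 1.55 (1.53 to 1.58). RNA polymerase III makes these RNAs as well as RN7SK, RMRP and RPPH1. Of 16 rows in that list 7 were measured, and all 7 were higher, with a median of 2.49, against 0.903% higher over all genes. RMRP and RPPH1 were at 0.313 and 0.670 CPM in the ADAR2 library, so they passed the filter only through the ADAR2+SRSF9 library. Outside that list, the copies RN7SL4P, RN7SL5P and RN7SKP80 were higher too, at ratios of 5.05, 4.91 and 2.99. Of 4 rows with the symbol Y_RNA 0 were higher, and of 7 further small nuclear RNA rows, mostly U6 copies, 1 was. The genes RNY1, RNY3, RNY4 and RNY5 were not measured. They had 2, 0, 0 and 6 reads in the ADAR2 library and 5, 6, 2 and 6 with SRSF9 added.

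Some RNAs of the class had log2 ratios below 0, the lowest being SNORD3C. SNORD3C, a U3 copy that guides ribosomal RNA processing, had 452, 559 and 309 reads and a ratio of 0.774 (0.672 to 0.891). A Y RNA row with 357, 519 and 311 reads had a ratio of 0.839 (0.727 to 0.968), and RN7SL737P, a copy of the signal recognition particle RNA, 0.797 (0.682 to 0.929). None of these 3 was called. How the class moves with the enrichment of polyadenylated RNA in each library was not tested.

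**Figure D4:**
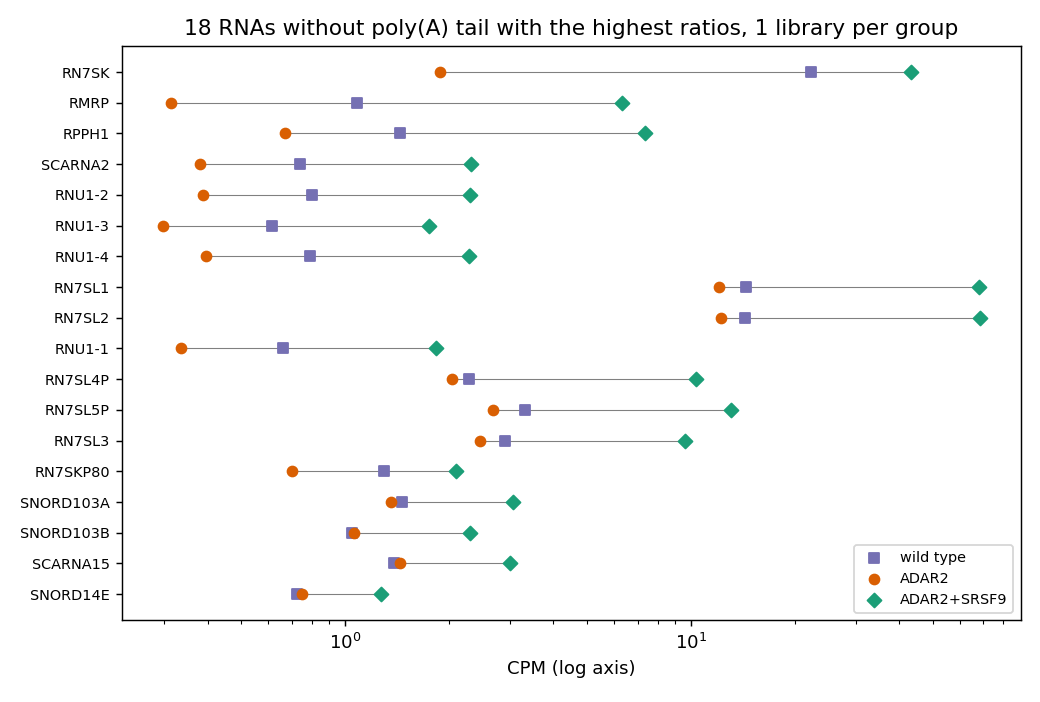
Level in CPM (log axis) of the 18 RNAs without poly(A) tail with the highest ratios, with 1 square for wild-type cells, 1 circle for the ADAR2 library and 1 diamond for the ADAR2+SRSF9 library. The diamonds are to the right in every row, and the circle of RN7SK (1.88 CPM) lies far left of its square (22.3 CPM), while the circles and squares of RN7SL1 and RN7SL2 are close.

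Replication-dependent histone transcripts, which end in a stem-loop and mostly lack a poly(A) tail, were mixed. Of 25 measured, 4 were higher (16.0%) and 0 lower, against 0.903% and 2.39% over all genes. Their median log2 ratio was 0.22. HIST1H4E had 276, 103 and 208 reads, a ratio of 2.83 (2.22 to 3.62), with the ADAR2 library low. At 0.767 CPM in that library, it passed the filter only through the ADAR2+SRSF9 library. HIST1H4C had 205, 180 and 302 reads, a ratio of 2.35 (1.95 to 2.84), with the ADAR2+SRSF9 library high. HIST1H3B and HIST1H4K had ratios of 1.81 and 1.53, and HIST1H4K was not called with plain totals (log2 ratio 0.57) or the GC trend removed (0.54). At a mean of at least 10 CPM the 8 measured genes had a median of -0.05 and 0 calls, so the sign of the class depended on the weakly expressed members. The 42 DNA replication genes had a median of 0.03 with 0 calls, and the 43 mitosis genes a median of -0.03 with 0 calls.

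Of 1222 long noncoding RNAs, 46 were higher (3.76%) and 9 lower (0.736%), and the median was 0.05. The row with the symbol MIR663A had 4566, 1864 and 3927 reads, a ratio of 2.95 (2.79 to 3.12), with the ADAR2 library low. SNHG11, a host gene of small nucleolar RNAs, was at 10.6, 11.4 and 17.4 CPM, a ratio of 1.53 (1.43 to 1.64). KCNQ1OT1, the antisense RNA of an imprinted domain, was at 14.4, 12.2 and 17.9 CPM, and SNHG15 at 101, 101 and 133 CPM, a ratio of 1.31. The 26 snoRNA host genes and transcripts sensitive to nonsense-mediated decay had SNHG11 as the only call, with a median of 0.04, and with plain totals SNHG11 was at a log2 ratio of 0.57 and not called. The lowest named were the antisense RNAs TPT1-AS1, TMCC1-AS1, FOXD2-AS1 and FBXL19-AS1, with ratios from 0.765 to 0.827, none of them called. Because the strand setting of the counting is not given, reads of antisense genes may be mixed with those of their partners.

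The splicing factor families stayed close apart from SRSF9 itself. Of 12 measured SR protein genes only SRSF9 was called, and the other 11 had ratios from 0.939 for SRSF4 to 1.11 for SRSF3. Among 20 SR-related genes and SR kinases SRPK3, a muscle-enriched SR protein kinase, was the only call, with 263, 294 and 350 reads and a ratio of 1.67 (1.42 to 1.95). The kinases SRPK1 and CLK1 had ratios of 0.975 and 1.10. All 27 hnRNP genes were within 1.5-fold, with a median of 0.06, and HNRNPU had the largest ratio at 1.16. Of 27 measured genes whose transcripts are known to be edited 0 were called and the median was -0.05. MDM2, counted here for its edited 3′ untranslated Alu elements, was lowest at 0.820, followed by CDK13 at 0.858 and COPA, a coatomer subunit gene, at 0.870. AZIN1, BLCAP, NEIL1 and FLNA, whose coding sequences are edited, had ratios of 1.04, 1.04, 1.08 and 1.10. Of 26 reported regulators of editing SRSF9 was the only call.

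Stress and signalling lists held few calls. Over all genes, 0.903% were higher and 2.39% lower. The 39 genes of the integrated stress and unfolded protein response had 0 calls and a median of 0.02, and the member furthest from 1 was CHAC1, a glutathione-degrading enzyme gene, at 4.16, 6.63 and 9.90 CPM and a ratio of 1.49 (1.36 to 1.64). The 26 heat shock genes had 0 calls, and DNAJB4, a co-chaperone gene, was furthest from 1 at 0.824. Of 6 measured metallothionein and zinc response genes 2 were higher (33.3%), MT1F at 1.81 and 2.82 CPM and MT1X at 1.04 and 1.58 CPM. MT2A was at 17.0 and 17.5 CPM. MT1X, at a log2 ratio of 0.59, was no longer called with DESeq2 size factors (0.58), plain totals (0.55), TMM over the 2 libraries (0.58) or the GC trend removed (0.58). Among 27 interferon-stimulated genes IFI27 was higher, with 778, 461 and 534 reads and a ratio of 1.62 (1.43 to 1.84), and ISG20, an exonuclease gene, lower, with 206, 279 and 118 reads and a ratio of 0.592 (0.473 to 0.737). Of 37 immediate-early genes EGR2 was higher at 1.68 (1.30 to 2.19) and KLF2 lower at 0.563 (0.450 to 0.702). EGR2 was at 0.812 CPM in the ADAR2 library, so it passed the filter only through the ADAR2+SRSF9 library. In ISG20 and KLF2 the ADAR2 library was the high one of the 3, and in IFI27 and EGR2 it was the low one. Glycolysis and hypoxia genes had a median of -0.06 over 36 members, with the glucose transporter gene SLC2A3 lowest at 0.773. The 32 cholesterol and fatty acid synthesis genes had a median of 0.07, with the lipogenic regulator gene SREBF1 highest at 1.17. Neither list had a call.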

How the data were processed

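The authors deposited 1 table of raw read counts (whole numbers) for each gene, with identifiers and symbols. Per the submitters' processing notes, the genome build was hg19 and the tools included STAR, Picard, GATK and SAMtools, without their roles. Not given in the sources used here are the counting program, its annotation, its strand setting and its treatment of reads with several matches. Columns were matched to samples by the library code in the labels.

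Counts were scaled by TMM over the 3 libraries (edgeR 4.0.16, R 4.3.3, factors of 1.01, 1.01 and 0.979) and given as CPM. Depth ran from 97875935 to 152878282 reads. For ratios, 0.5 reads were added as a prior in proportion to library size, with a 95% exact Clopper-Pearson counting interval. Gene types, GC content and sequences came from GENCODE v29 on GRCh38, which is not the authors' build: 15582 of the 16055 genes matched by identifier, 130 by symbol and 343 not. Pseudogenes were aligned to protein-coding transcripts with blastn 2.17.0 (E-value of 1e-20). Calculations used Python 3.11.15, numpy 2.4.6, pandas 2.3.3, scipy 1.17.1 and matplotlib 3.10.9, and the calling of ratios was tested on simulated data.

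The genes compared and the 35 gene lists were chosen with earlier results of these data known. Named genes are SRSF9 and the ADAR genes, then by log2 ratio, among genes whose interval excludes 1: at a mean of at least 10 CPM the 12 highest and 12 lowest protein-coding genes, the 3 highest and 5 lowest processed pseudogenes and the 4 highest and 4 lowest long noncoding RNAs; at 1 to 10 CPM the 6 highest and 6 lowest protein-coding genes; the 6 highest and up to 4 lowest RNAs without poly(A) tail; and from each list the called members or else the one furthest from 1. Clone-based names were passed over, and some genes are not reported here. Alternatives were size factors of DESeq2 1.42.0, plain totals, upper-quartile scaling, TMM over the 2 libraries, no filter, a mean of 10 CPM, a 2-fold call, an interval beyond 1.5-fold throughout, a prior count of 5 and removal of the trend with GC content.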

Additional observations from a re-analysis of the deposited data

How the results depend on the processing

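No paired analysis was possible because each group is 1 library, and for the same reason no library could be left out. Counts are given in the order all genes higher and lower, protein-coding genes higher and lower, processed pseudogenes higher and lower, RNAs without poly(A) tail higher and lower. With no filter on low counts, which adds genes of few reads, they were 2001, 1930, 521, 379, 285, 1016, 180 and 44. At a mean of at least 10 CPM, where fewer genes are tested, all genes gave 15 and 46, protein-coding genes 4 and 5, processed pseudogenes 1 and 40, and 5 RNAs without poly(A) tail were higher; the median log2 ratio was -0.41 for processed pseudogenes and 0.0145 for protein-coding genes. With a 2-fold threshold the counts were 49, 28, 9 and 7 for all and protein-coding genes and 3 and 19 for pseudogenes. With the interval wholly beyond 1.5-fold they were 57, 98, 13 and 14, and 3 and 79. Under the other scalings, a prior count of 5 and removal of the GC trend every count stayed within 1.5 times. The scalings moved the median of all genes by at most 0.0447 log2. The protein-coding median was 0.0057 with DESeq2 size factors, -0.0256 with plain totals, 0.022 with upper-quartile scaling, 0.0017 with TMM over the 2 libraries and 0.0042 without the GC trend. The pseudogene median was -0.49 with plain totals and -0.47 with TMM over the 2 libraries. The SRSF9 ratio was 49.1, 48.04 and 48.96 and the ADARB1 ratio 0.840, 0.822 and 0.837 with DESeq2 size factors, plain totals and TMM over the 2 libraries, and ADARB1 was at 0.839 without the GC trend. Of 102 named genes 0 changed direction under any scaling. Small list medians did: 13 of 35 changed sign with plain totals, among them core spliceosome, Wnt, DNA replication and mitochondrially encoded genes, 4 with DESeq2 size factors, 4 with TMM over the 2 libraries, 1 with upper-quartile scaling and 3 without the GC trend. Over protein-coding genes at 10 CPM or more the median log2 ratio ran from -0.005 in the lowest decile of GC content to 0.07 in the highest.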

Other observations

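Some rows outside the rule for named genes stood far apart and were chosen after their values were seen. KLKP1, a pseudogene of the kallikrein family, had 102 reads in wild-type cells, 60 in the ADAR2 library and 598 with SRSF9 added, a ratio of 14.0 (10.7 to 18.5). Its wild-type and ADAR2 levels of 0.660 and 0.447 CPM were both far below the 6.24 CPM of the ADAR2+SRSF9 library. The row CTD-2328D6.1, which had no match in the annotation, had 45044, 14609 and 62458 reads, a ratio of 5.99 (5.88 to 6.10). Rows AC079949.1 and AL161626.1, also without a match, had 5319, 1941 and 10529 reads and 4274, 1531 and 8249 reads, with ratios of 7.60 and 7.55. In all 3 of these rows the ADAR2 library was the lowest and the ADAR2+SRSF9 library the highest. The microRNA rows MIR3687 and MIR3648 had 371, 110 and 286 reads and 859, 332 and 602 reads, with ratios of 3.64 (2.91 to 4.58) and 2.54 (2.22 to 2.91). MIR3687 was under 1 CPM in the ADAR2 library and passed the filter only through the ADAR2+SRSF9 library. The 2 rows were those called higher among 9 microRNA loci (22.2%), against 0.903% over all genes. For both, the ADAR2 library was the low one and wild-type cells and the ADAR2+SRSF9 library were close in CPM, at 2.40 and 2.98 for MIR3687 and at 5.56 and 6.28 for MIR3648. Whether these rows share reads with each other or with repeated genes was not tested.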
